A study of Mus musculus with 10 samples.

Results

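The class 4 semaphorins and the plexin B receptors were followed in brain RNA of Slc20a2-HO mice given FTY720 or placebo. The members were the 9 rows of the gene count table named Sema4a, Sema4b, Sema4c, Sema4d, Sema4f, Sema4g, Plxnb1, Plxnb2 and Plxnb3, out of 54532 genes. Sema4c was picked because its values differed between FTY720 and placebo in these same mice, and the other 8 were picked by family name. All 9 passed the filter on low counts, which left 17665 genes.

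All 10 mice are labelled Slc20a2 homozygous (HO) knockouts, a genotype of a phosphate transporter gene that both groups share, and no library of another genotype was analysed here. The study made these mice with the Slc20a2 tm1a(EUCOMM)Wtsi allele to model primary familial brain calcification. From the age of 1.5 months, 6 mice received FTY720 (fingolimod, a sphingosine-1-phosphate receptor modulator) at 0.5 mg/kg in dimethyl sulfoxide by intraperitoneal injection 3 times per week for 12 weeks, and 4 mice received dimethyl sulfoxide alone. Counts were summed over genes to between 14772745 and 18303981 per mouse. The mice are called by their names, such as F1-622 for an FTY720 mouse and P3-612 for a placebo mouse. The digit after the letter was 1 in 3 FTY720 mice and 1 placebo mouse, and 3 in 3 FTY720 mice and 3 placebo mice, and its meaning is not given in the sources used here. The summed level of 8 cerebellar granule cell markers, led by Zic1 and Cbln3, was 222 to 238 CPM (counts scaled to the normalized library size) with the digit 1 against 1295 to 1442 CPM with the digit 3, and that of 8 forebrain markers, led by Tbr1 and Bcl11b, was 469 to 520 against 318 to 372 CPM. The tissue is labelled brain, and 8 of 8 neuronal markers were measured in every mouse. Treatment was therefore compared over all mice, with the digit as a covariate, and within each digit. Slc20a2 had 89 to 254 counts with FTY720 and 144 to 294 with placebo, summed over the whole gene and with no wild-type library beside them, so these counts do not check the genotype label.

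Class 4 semaphorins are membrane-anchored ligands that act on neighboring cells, and some are also cut from the surface by metalloproteinases. Plexin B receptors bind them through a sema domain of their own, and signal inside the cell through a GTPase-activating domain for R-Ras family proteins and through guanine nucleotide exchange factors that bind the receptor tail. In the brain the family is known for axon guidance, neuronal migration, synapse formation and cerebellar granule cell development. In bulk tissue, fewer cells of a type and less RNA per cell cannot be told apart.

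The promoters of Sema4c and Sema4a are shown because the comparisons below turn on these ligands. They are the 250 bases before the RefSeq start site nearest to the 5′ end of each gene, from GRCm38.p6, written 5′ to 3′ on the gene's strand, and capitals mark the GC box GGGCGG or its complement CCGCCC. The Sema4c window is chr1:36558382-36558631 on the minus strand and the Sema4a window is chr3:88461183-88461432 on the minus strand.
Sema4c: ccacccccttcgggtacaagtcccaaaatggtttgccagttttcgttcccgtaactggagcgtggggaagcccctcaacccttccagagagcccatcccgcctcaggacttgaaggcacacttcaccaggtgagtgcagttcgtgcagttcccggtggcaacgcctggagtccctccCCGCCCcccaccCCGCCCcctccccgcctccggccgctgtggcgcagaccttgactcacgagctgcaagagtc
Sema4a: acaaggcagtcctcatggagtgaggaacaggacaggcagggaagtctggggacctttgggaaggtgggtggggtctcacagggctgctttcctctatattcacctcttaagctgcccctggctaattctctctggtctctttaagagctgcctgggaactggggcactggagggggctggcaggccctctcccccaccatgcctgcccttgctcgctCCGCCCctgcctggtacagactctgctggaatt
The Sema4c window held 2 GC boxes and 15 CpG dinucleotides, and the Sema4a window held 1 GC box and 2 CpG dinucleotides. Windows at further start sites held 3, 13 and 6 CpG dinucleotides for Sema4a and 23 for Sema4c. Searched on both strands, the GC box was in the nearest window of 6 of the 9 members and in 32.7% of 32851 windows of the same length, whose median was 6 CpG dinucleotides. The letters GGGCGG were not in the nearest windows of Sema4f and Plxnb3, nor in that of Sema4d, which lies 37064 bases from the 5′ end of the gene in the count table, while a further Sema4d window held 1.

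Sema4c (ENSMUSG00000026121, GRCm38 chr1:36548639-36558349, minus strand) encodes a ligand of plexin-B2 whose tail carries a PDZ-binding end. Its level ranged from 13.2 to 17.7 CPM with FTY720, with a median of 15.6 CPM. In the placebo mice it was 20.6 CPM in P1-623, 21.1 CPM in P3-612, 21.2 CPM in P3-904 and 24.9 CPM in P3-907. Every FTY720 mouse was below every placebo mouse, an arrangement that 0.368% of the genes tested showed in this direction and that the choice of Sema4c had used. The mean was 15.3 ± 1.76 CPM (SD, n = 6) in FTY720 mice against 21.9 ± 1.96 CPM (SD, n = 4) in placebo mice, and the log2 fold change was -0.52 (SE, the standard error, 0.12), a fold of 0.695. No test is given for it, because these values chose the gene.

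Because no FTY720 mouse overlapped a placebo mouse, the groups are also apart within each digit by construction, and the values there are given as a description. With the digit 1, Sema4c was 13.3, 16.0 and 15.1 CPM in the 3 FTY720 mice and 20.6 CPM in the only placebo mouse, and with the digit 3 it was 13.2, 17.7 and 16.2 CPM against 21.1, 21.2 and 24.9 CPM. The log2 fold change was -0.48 (SE 0.21) within the digit 1, -0.51 (SE 0.15) within the digit 3 and -0.50 (SE 0.12) with the digit as a covariate. The difference between the 2 within-digit changes was -0.03 on the log2 scale (SE 0.26), given with no test for the same reason. Leaving out each mouse in turn moved the log2 fold change over all mice between -0.57 (without F3-612) and -0.46 (without P3-907).

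Some markers of the oligodendrocyte lineage were also lower with FTY720. The summed level of 9 oligodendrocyte markers, led by Mbp and Mobp, was 4073 to 5004 CPM with FTY720 and 4704 to 5571 CPM with placebo, and all 9 had a negative log2 fold change, of which 3 had an unadjusted p under 0.05, where 2.61% of all genes tested did. That of 7 oligodendrocyte precursor markers, led by Olig1 and Pdgfra, was 278 to 390 CPM and 363 to 444 CPM; 4 of these 7 had a negative log2 fold change and 2 an unadjusted p under 0.05. The summed level of 7 endothelial markers was 151 to 254 CPM with FTY720 and 133 to 166 CPM with placebo; 2 of the 7 were higher at an unadjusted p under 0.05. With the digit as a covariate, 4 of the 9 oligodendrocyte and 3 of the 7 precursor markers were lower and 6 of the 7 endothelial markers higher at an unadjusted p under 0.05, where 12.8% of all genes tested had one. The part of these cells in the Sema4c difference was not tested. An annotated transcript on the opposite strand, D430040D24Rik, overlaps Sema4c by 649 bases and had 11 to 30 counts in each mouse, with a log2 change of -0.29 (SE 0.29).

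**Figure D1:**
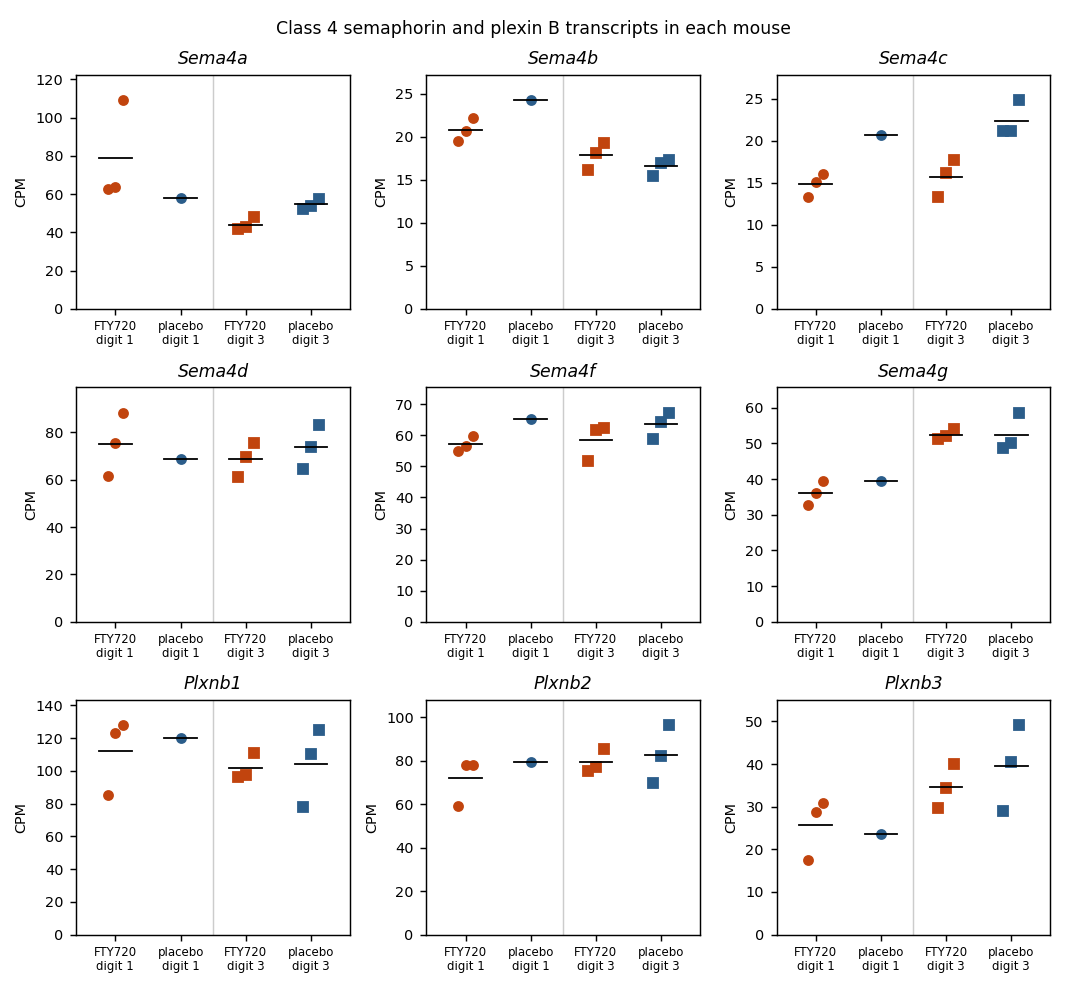
Level of each class 4 semaphorin and plexin B gene in CPM (y axis, starting at 0) in each of the 10 mice, by treatment and name digit (x axis). Points are mice (circles digit 1, squares digit 3), orange is FTY720, blue is placebo and the bar is the mean of the group; Sema4c with FTY720 stays at or below 17.7 CPM and with placebo at or above 20.6 CPM, and Sema4g is higher in every mouse with the digit 3.

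The question that Sema4c raised was whether related ligands and receptors moved with it. None of the other 8 members had an unadjusted p under 0.05 for FTY720 against placebo in edgeR or in the DESeq2 Wald test, where 2.61% of all genes tested did in edgeR. No gene tested had an adjusted p under 0.05 by either tool, and 461 genes had an unadjusted p under 0.05 by edgeR and 550 by DESeq2. The log2 fold changes of the 8 ran from -0.23 for Plxnb3 to 0.14 for Sema4a, 6 were negative, and their median was -0.07, beside -0.003 over all genes tested. With the digit as a covariate, all 8 were negative, between -0.14 and -0.01, with a median of -0.07 beside -0.01 over all genes, and again none of the 8 had an unadjusted p under 0.05, which 12.8% of all genes had. The direction of Sema4a and Sema4b over all mice was positive and turned negative with that covariate.

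Among the other ligands, Sema4f came nearest to separating the groups. Sema4f (ENSMUSG00000000627, GRCm38 chr6:82911885-82939769), whose tail binds the postsynaptic scaffold PSD-95, was at 51.9 to 62.2 CPM with FTY720, with a median of 58.3 CPM, and at 65.3, 67.4, 58.9 and 64.4 CPM in P1-623, P3-612, P3-904 and P3-907. The groups overlapped through P3-904 alone, which was below 3 of the FTY720 mice. Its log2 fold change was -0.14 (SE 0.09, adjusted p = 0.99992, edgeR). Permuting the treatment labels over all 210 splits of the 10 mice (exact test on mean log2 CPM, two-sided) gave p = 0.0476, the smallest of the 8 members tested this way and unadjusted for those 8 tests, while the others lay between 0.357 and 0.948. The splits took no account of the name digit. The 2 tests thus fell on different sides of 0.05 for Sema4f, with an unadjusted p of 0.141 in edgeR.

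Sema4d (ENSMUSG00000021451, GRCm38 chr13:51685529-51793747), the classic ligand of plexin-B1 and an oligodendrocyte and lymphocyte protein, did not separate the groups. It was at 61.1 to 88.4 CPM with FTY720, with a median of 72.5 CPM, and at 68.9, 64.7, 83.3 and 73.7 CPM in P1-623, P3-612, P3-904 and P3-907. The log2 fold change was -0.01 (SE 0.12, 95% interval -0.28 to 0.26). Sema4b (ENSMUSG00000030539, GRCm38 chr7:80186841-80226527) had a log2 change of 0.06 (SE 0.15), and Sema4g (ENSMUSG00000025207, GRCm38 chr19:44989101-45003397) of -0.15 (SE 0.17). Their levels over treatment groups overlapped. Sema4g was 36.1 CPM on average with FTY720 and 39.6 CPM in the placebo mouse with the digit 1, and 52.4 and 52.5 CPM with the digit 3. Against that single placebo mouse, every FTY720 mouse with the digit 1 was lower for Sema4b, Sema4f, Sema4g and Plxnb2, as for 24.4% of all genes tested; with the digit 3 these 4 overlapped, and none of the 4 had an unadjusted p under 0.05 within either digit.

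The 3 receptors did not pass the test either. Plxnb1 (ENSMUSG00000053646, GRCm38 chr9:109095389-109119917), the Sema4D receptor, had 85.5 to 127.8 CPM with FTY720 and 77.8 to 125 CPM with placebo, and a log2 change of -0.02 (SE 0.15, 95% interval -0.35 to 0.32). Plxnb2 (ENSMUSG00000036606, GRCm38 chr15:89155549-89180788), which binds Sema4C and Sema4G, had 59.4 to 85.2 CPM with FTY720, with a median of 77.6 CPM, and 79.6, 69.7, 96.3 and 82.2 CPM in P1-623, P3-612, P3-904 and P3-907. Both ranges of Plxnb2 overlapped, and its log2 fold change was -0.12 (SE 0.12, 95% interval -0.38 to 0.14). Plxnb3 (ENSMUSG00000031385, GRCm38 chrX:73757090-73772514), which also binds Sema5A, had 17.6 to 40.0 CPM with FTY720 and 23.7 to 49.1 CPM with placebo. Its log2 change was -0.23 (SE 0.23, 95% interval -0.73 to 0.27), and it was -0.04 without P3-904 and -0.38 without P1-623. The interval includes the -0.52 of Sema4c, so that a change of that size in Plxnb3 is not excluded.

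**Figure D2:**
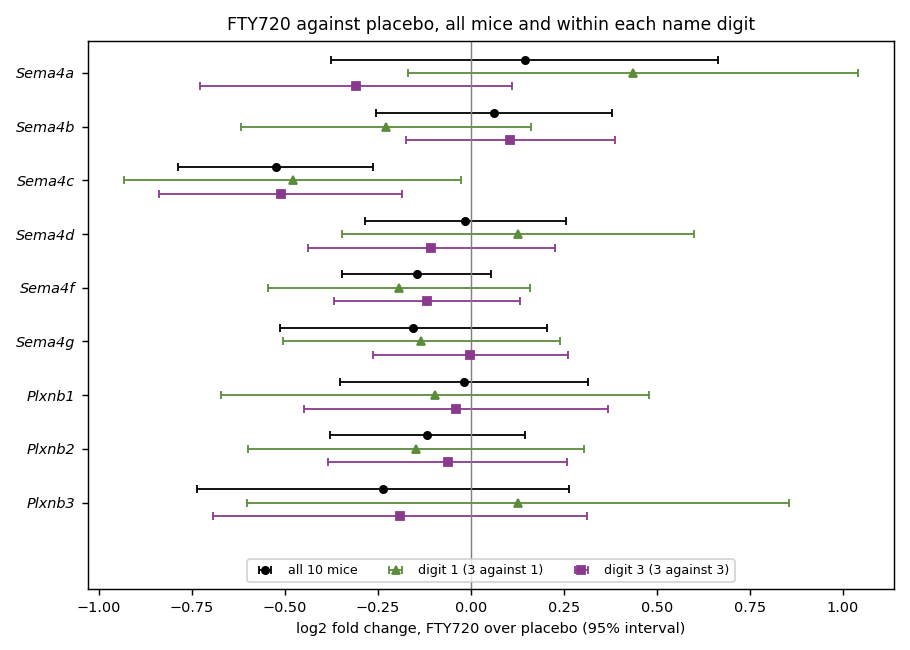
Log2 fold change of FTY720 over placebo (x axis) for each member (y axis), with 95% intervals from the edgeR fit over all 10 mice (black), within the digit 1 (green, 3 mice against 1) and within the digit 3 (purple, 3 mice against 3). Sema4c lies between -0.52 and -0.48 in all 3, while the other members' intervals over all mice include 0; Sema4c was chosen on these values.

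Sema4a (ENSMUSG00000028064, GRCm38 chr3:88435959-88461182), a ligand known from photoreceptors and immune cells, was the member whose treatment difference differed between the digits at an unadjusted p under 0.05. With the digit 1 it was 109 CPM in F1-622, 62.7 CPM in F1-624 and 63.9 CPM in F1-918, and 58.1 CPM in P1-623. With the digit 3 it was 42.6, 47.9 and 41.8 CPM in F3-609, F3-612 and F3-908, and 52.5, 54.0 and 57.5 CPM in P3-612, P3-904 and P3-907. Every FTY720 mouse was thus above the single placebo mouse in the digit 1, as for 23.3% of all genes tested, and below every placebo mouse in the digit 3, as for 6.52% of all genes tested. The log2 fold change was 0.44 (SE 0.28) and -0.31 (SE 0.19), and neither had an unadjusted p under 0.05, which 3.69% of all genes had within the digit 1 and 7.22% within the digit 3. When the 6 mice with the digit 3 were fitted alone, the change of -0.30 had an unadjusted p under 0.05 and not an adjusted one.

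The difference between the 2 changes of Sema4a was -0.74 on the log2 scale (SE 0.34, 95% interval -1.48 to -0.01), with an unadjusted p of 0.0479 and an adjusted p of 0.99994 in edgeR. Sema4a was the only member with an unadjusted p under 0.05 for this difference, where 1.95% of all genes tested had one. It rests on the single placebo mouse with the digit 1. It also lost its unadjusted p under 0.05 with upper-quartile factors, a minimum of 10 counts per mouse, limma-voom and both fits on FPKM. Without F1-622 the difference was -0.45 and kept its unadjusted p under 0.05, and it lost it without F3-609 (-0.72), F3-612 (-0.81), F3-908 (-0.71), P3-904 (-0.75) or P3-907 (-0.71).

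Levels were also compared between the digits. Sema4g, which acts with plexin-B2 in cerebellar granule cells, was higher with the digit 3, and Sema4a and Sema4b were lower. Sema4g was at 32.7, 36.0, 39.5 and 39.6 CPM with the digit 1, in F1-622, F1-624, F1-918 and P1-623, but at 48.6 to 58.7 CPM with the digit 3, with a median of 51.6 CPM. No mouse overlapped between the digits, and the log2 fold change with treatment as a covariate was 0.49 (SE 0.10, adjusted p = 0.00313, edgeR). Sema4g kept an adjusted p under 0.05 in all 10 fits that left out a mouse, between 0.45 and 0.54.

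Sema4a was at 58.1 to 109 CPM with the digit 1 but at 41.8 to 57.5 CPM with the digit 3, a log2 change of -0.60 (SE 0.18, adjusted p = 0.0262, edgeR). Sema4b was at 20.6, 22.2, 19.5 and 24.3 CPM in F1-622, F1-624, F1-918 and P1-623 with the digit 1, and at 15.4 to 19.3 CPM with the digit 3, a log2 change of -0.33 (SE 0.11, adjusted p = 0.0343, edgeR). Neither gene overlapped between the digits, but the gap between the nearest mice was small in both, 57.5 against 58.1 CPM for Sema4a and 19.3 against 19.5 CPM for Sema4b. The Sema4a change was -0.36 without F1-622 and -0.83 without P1-623. The adjusted p of Sema4a was no longer under 0.05 without F3-609, F3-612 or F3-908, and that of Sema4b without F1-624, F3-609, P1-623 or P3-907.

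In all, 3 of 9 members had an adjusted p under 0.05 for the digit, near the 28.4% of all genes tested, and the same 3 had no overlap between the digits, against 14.2% of all genes tested. Plxnb3 missed the threshold, with a log2 change of 0.53 (SE 0.19, adjusted p = 0.0516, edgeR), and was under it by 6 of 11 alternatives, DESeq2 among them. It was at 17.6 to 30.9 CPM with the digit 1 but at 29.0 to 49.1 CPM with the digit 3, so that the ranges overlapped. The remaining members had log2 fold changes between -0.16 for Plxnb1 and 0.11 for Plxnb2, with adjusted p of 0.412 or more, and Sema4c was among them at 0.10 (SE 0.12, 95% interval -0.16 to 0.35). Beside the regional markers of the opening, the summed level of 6 microglial markers, led by Csf1r and C1qa, was 253 to 307 CPM with the digit 1 against 166 to 237 CPM with the digit 3. The part of these cells and regions in the digit differences of the members was not tested.

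**Figure D3:**
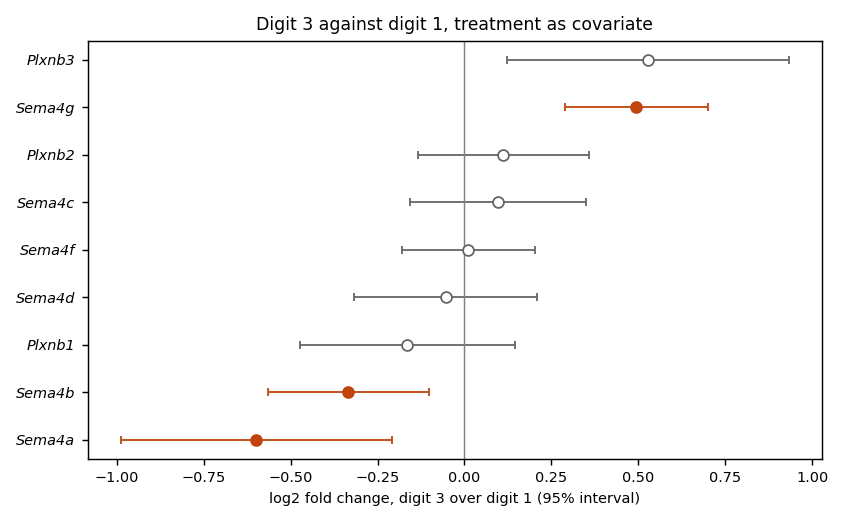
Log2 fold change of the digit 3 over the digit 1 (x axis) for each member (y axis), with treatment as a covariate and 95% intervals from edgeR. Filled orange points have an adjusted p under 0.05, which were Sema4g above 0 and Sema4a and Sema4b below 0, and open gray points do not; Sema4c is at 0.10.

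Per transcript length, the receptors and ligands fell into a higher and a lower tier. In FPKM (fragments scaled to gene length and library size, mean ± SD, n = 10), Sema4f was at 11.3 ± 0.876, Plxnb1 at 11.1 ± 1.8, Sema4a at 10.8 ± 3.54, Plxnb2 at 10.01 ± 1.23, Sema4g at 9.39 ± 1.77 and Sema4d at 9.30 ± 1.16. Plxnb3 was at 4.93 ± 1.39, Sema4c at 3.86 ± 0.821 and Sema4b at 3.32 ± 0.485. Sema4d was above Plxnb3, its neighbor in this order, in 10 of 10 mice. Between all other neighbors the order turned in some mice, with the higher of each pair above the next in 5 to 8 of the 10 mice. The order of these neighbors was therefore not the same in all mice, and pairs further apart were not counted mouse by mouse. Part of the order went with the digit. Sema4g was above Sema4d in 6 of 6 mice with the digit 3 and in 0 of 4 with the digit 1, and Sema4a was above Plxnb2 in 4 of 4 mice with the digit 1 and in 1 of 6 with the digit 3. Sema4a had the highest mean with the digit 1 (13.5 FPKM), through F1-622 at 20.1 FPKM, while its median there was 11.6 FPKM against 12.5 FPKM for Plxnb1. With the digit 3 its mean was below that of Sema4d (9.04 against 9.19 FPKM). Sema4b was above Sema4c on average with the digit 1 (3.79 against 3.50 FPKM) and below it with the digit 3 (3.01 against 4.10 FPKM).

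**Figure D4:**
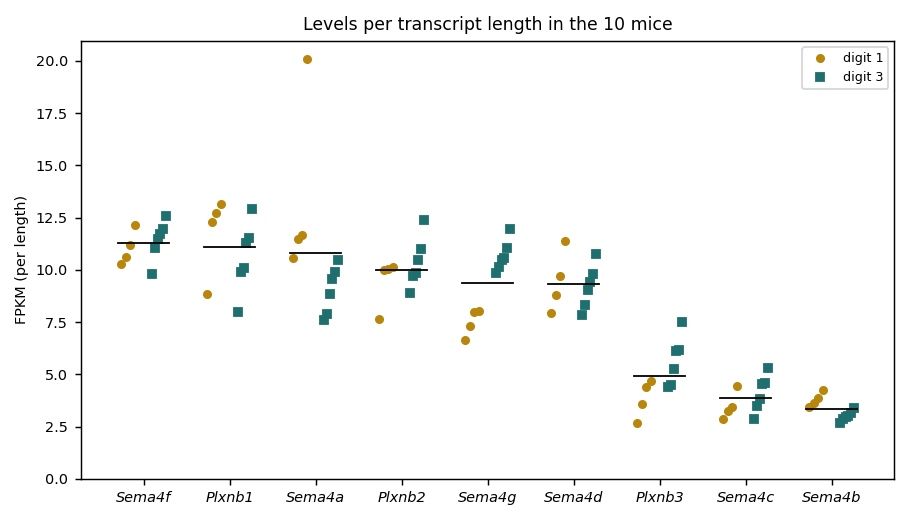
Level per transcript length in FPKM (y axis, starting at 0) of the 9 members, ordered by their mean (x axis). Points are mice (gold circles digit 1, teal squares digit 3) and the bar is the mean of 10 mice; the lower tier of Plxnb3, Sema4c and Sema4b has means of 4.93 or less, and the highest single point is F1-622 for Sema4a at 20.1.

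Some members varied together from mouse to mouse. With the digit means taken off the log2 CPM values of the 10 mice, the plexin B genes followed each other, with Pearson correlations of 0.967 for Plxnb1 and Plxnb2, 0.922 for Plxnb1 and Plxnb3 and 0.900 for Plxnb2 and Plxnb3. Sema4d followed Plxnb3 at 0.954, Plxnb1 at 0.790 and Plxnb2 at 0.783. Sema4g followed Plxnb2 at 0.812, Plxnb1 at 0.741 and Plxnb3 at 0.681. Sema4c was nearest to Sema4f, at 0.754, and Sema4a ran the other way from Sema4g, at -0.594. These are descriptions over 10 mice, and in each mouse the genes of a pair share a library with its treatment and depth. Treatment differed between the mice and was not taken off. The FTY720 difference that chose Sema4c is therefore part of its correlations, that with Sema4f included. The trend of log2 CPM on gene length also differed between the libraries, from -0.09 per doubling of length in P1-623 to 0.09 in P3-904, and its part in these correlations was not tested.

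The 5 protein-coding genes with the pattern most like that of Sema4c over the 10 mice, by the same correlation among 14783 genes, were Slc16a3 (0.982), a lactate transporter, Olig2 (0.978), a transcription factor of the oligodendrocyte lineage, Tril (0.976), an accessory protein of toll-like receptors, Evc2 (0.968), a ciliary protein of hedgehog signaling, and Ephb6 (0.951), an ephrin receptor without kinase activity. Treatment was not taken off, so that genes differing between FTY720 and placebo come first by construction.

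Beyond the members, 50 genes of the pathway were listed and 48 were tested; Cd72 and Timd2, receptors of Sema4D and Sema4A on immune cells, did not pass the filter. For FTY720 against placebo, 1 gene of the 48 was higher and 2 were lower at an unadjusted p under 0.05, beside 2.61% of all genes tested in either direction, none had an adjusted p under 0.05, and the median log2 fold change was 0.04, beside -0.003 over all genes tested. Sema3c, a secreted semaphorin, was at 30.1 ± 3.09 CPM (SD, n = 6) in FTY720 mice against 24.7 ± 2.88 CPM (SD, n = 4) in placebo mice, with a log2 change of 0.28 (SE 0.12). Sema6c, a transmembrane semaphorin, was at 29.8 ± 5.29 CPM against 38.7 ± 3.09 CPM, with a log2 change of -0.37 (SE 0.14). Mmp14, a membrane metalloproteinase that can shed Sema4D, was at 19.9 ± 2.34 CPM against 24.3 ± 1.83 CPM, with a log2 change of -0.28 (SE 0.12). All 3 had an adjusted p of 0.99992 in edgeR. By list, 2 of 14 other semaphorins, 0 of 8 other plexins and neuropilins, 0 of 23 plexin B partners and effectors and 1 of 3 other class 4 receptors and sheddases had an unadjusted p under 0.05. With the digit as a covariate 10 of the 48 did, 4 higher and 6 lower, against 12.8% of all genes, and again none had an adjusted p under 0.05. Sema3c lost its unadjusted p under 0.05 with the leading digit of the mouse number as a covariate and, with Sema6c, in the mice with the digit 3 alone, and Mmp14 lost it without a filter on low counts. The count without a covariate was 0 without P3-907, 1 without F3-609 or P3-612 and 8 without P3-904. The share of all genes called in each of these fits is not given here, so these counts are not set against it.

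For the digit, 12 of the 48 pathway genes had an adjusted p under 0.05, 5 higher and 7 lower with the digit 3, close to the share of all genes. The largest log2 fold changes upward were those of Sema6d (0.71), a plexin A ligand, Rock1 (0.65), a kinase of the actin cytoskeleton, and Sema3d (0.63), a secreted semaphorin. Downward they were those of Sema6b (-0.79), another plexin A ligand, Gipc1 (-0.79), a PDZ adaptor that binds Sema4C, and Havcr2 (-0.64), an immune checkpoint receptor.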

How the data were processed

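Brain RNA of 10 mice was sequenced with a kit that does not mark strand. The authors deposited raw counts per gene and mouse, without normalization, and FPKM values scaled by gene length and a library total per mouse. The submitters' processing notes name CASAVA 1.8, fastp, HISAT2 2.0.5, featureCounts 1.5.0-p3, DESeq2 1.20.0 and the genome build GRCm38 (mm10). The strand setting is not given in the sources used here, so that reads of overlapping genes cannot be told apart; 6 of the 9 members overlap another annotated gene.

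On the deposited counts, filterByExpr kept 17665 genes and TMM set the library factors. edgeR 4.0.16 (R 4.3.3) gave quasi-likelihood tests with p-values adjusted over all 17665 genes by the Benjamini-Hochberg method. The edgeR values printed with an SE or a p-value are from these tests. Fits that left out mice, used a subset or changed a setting were run anew, with the filter, factors and adjustment of that fit. The fits were FTY720 against placebo without a covariate, with the name digit as a covariate, within each digit and as an interaction, and digit 3 against digit 1 with treatment as a covariate. The standard error (SE) of a log2 change is that change over the root of its F statistic. Log2 CPM used a prior count of 2. Interval and test errors describe the spread between the mice as labelled. Each mouse had 14772745 counts or more.

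The members and lists were chosen with earlier results of these data known. The genes named were the 9 members, pathway genes with an unadjusted p under 0.05 for FTY720, the 3 largest digit changes in each direction among pathway genes with an adjusted p under 0.05, the 5 protein-coding genes most like Sema4c and the leading genes of marker lists. The alternatives were DESeq2 1.42.0, RLE and upper-quartile factors, no filter, a minimum of 10 counts per mouse, limma-voom (limma 3.58.1), limma on log2(FPKM + 0.1) and log2(FPKM + 1), other covariates or subsets of mice, and each mouse left out. The scripts were tested on simulated data. Some marker genes are not reported here and were left out of the summed marker levels.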

Additional observations from a re-analysis of the deposited data

Results flagged for a closer look

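Single mice stood apart in 4 of 36 combinations of member and group given Dixon's test, which flags about 1 in 20 by chance. Sema4a in F1-622 was 109 CPM, far above the next mouse at 63.9 CPM, both among the 6 FTY720 mice and among the 4 mice with the digit 1. Plxnb2 in the same mouse was 59.4 CPM, far below the next of the 4 mice with the digit 1 at 78.0 CPM. Sema4c in P3-907 was 24.9 CPM, apart from the other placebo mice, the next being 21.2 CPM.

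The change of Sema4a with FTY720 differed between the digits by -0.74 on the log2 scale, with an unadjusted p under 0.05 and an adjusted p of 0.99994 in edgeR, and it rests on 1 placebo mouse with the digit 1. The unadjusted p was not under 0.05 by 5 of 9 alternatives.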

How the results depend on the processing

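For FTY720 against placebo, Sema4c stayed between -0.53 and -0.41 in log2 fold change over 11 alternatives, and none of the other 8 members had an unadjusted p under 0.05 except Sema4a in the mice with the digit 3 alone, where 1283 of all genes did. With Sema4c, which was chosen on these values, that count of members is 2. Small changes turned sign: Sema4d to 0.0057 and Plxnb1 to 0.0028 without a filter, Sema4d to 0.014 and Plxnb1 to 0.0099 with the leading digit of the mouse number as a covariate, Sema4a to -0.073 and Sema4b to -0.0084 with the name digit as a covariate, and Sema4a to -0.30 and Sema4g to 0.0061 in the digit 3 alone. The count of pathway genes was 10 with the name digit as a covariate. For the digit, Sema4f turned to -0.0083 without a filter, Plxnb3 gained an adjusted p under 0.05 under 6 of 11 alternatives (DESeq2, upper-quartile factors, no filter, the count minimum, limma-voom and no treatment covariate), and Sema4b lost it under 4 (no filter, log2(FPKM + 0.1), the leading digit and FTY720 mice alone). For the interaction, the count of members fell to 0 with upper-quartile factors, a minimum of 10 counts per mouse, limma-voom, log2(FPKM + 0.1) and log2(FPKM + 1), and Sema4c turned to 0.0069 with upper-quartile factors and 0.021 with the leading digit. The cause was not tested.

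Over all genes, FTY720 against placebo gave 461 genes with an unadjusted p under 0.05, and 1117 without a filter, 2256 with the name digit as a covariate and 1283 in the digit 3 alone. Without single mice, counts of members were 1 to 1 for FTY720 (Sema4c, which the choice of members fixes), 1 to 4 for the digit and 0 to 1 for the interaction, for which P1-623 cannot be left out, and pathway genes 0 to 8. These counts are likewise given without the share of all genes called in each fit. The log2 ranges of the members that turned sign in these fits were, for FTY720, Sema4a -0.092 to 0.23, Sema4b -0.016 to 0.23, Sema4d -0.078 to 0.058 and Plxnb1 -0.15 to 0.059, for the digit, Sema4d -0.13 to 0.046 and Sema4f -0.019 to 0.058, and for the interaction, Sema4c -0.13 to 0.077, Plxnb1 -0.12 to 0.21 and Plxnb2 -0.051 to 0.21. Plxnb3 passed the threshold for the digit in 4 of 10 such fits. No paired analysis was possible because the labels give no replicate numbers, and the groups share only 1 mouse number, 612 (F3-612 and P3-612), where a block needs at least 2 pairs. With 1 placebo mouse in the digit 1, that mouse's spread is assumed to be like the others'.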
